A study of Homo sapiens with 6 samples.

Results

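Axon guidance ligands and receptors were followed in RNA-seq libraries of cells labelled SW620, an established human colorectal cancer line. The members were taken by family name: every gene whose symbol belongs to the ephrin, EPHA, EPHB, semaphorin, plexin, ROBO, UNC5 or netrin families, with SLIT1 to SLIT3, NRP1 and NRP2. DCC, which the rule also names, is not analysed here. The set held 58 genes of the 20729 in the deposited table, and 9 symbols that begin the same way were left out because they name antisense genes or other genes (UNC50 and UNC5CL). The siOSBPL3 group was 3 libraries of cells given an siRNA against OSBPL3, and the siNC group was 3 libraries of cells given a control siRNA. All 6 libraries share the cell label, and neither a drug nor a time after transfection is given in the labels. OSBPL3 encodes an oxysterol-binding-protein-related lipid transfer protein.

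Guidance cues are secreted or membrane-bound proteins that steer growing axons and also govern adhesion and migration in epithelia and vessels. Ephrins are held in the membrane and bind EPH receptor tyrosine kinases on neighbouring cells, so that both cells can signal. SLIT proteins signal through ROBO receptors, netrins through DCC and UNC5 receptors, and semaphorins through plexins, with neuropilins as coreceptors for the secreted class 3. In the intestinal crypt, EPHB receptors and B-type ephrins are known for sorting cells along the crypt axis.

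The libraries held 34569895, 36437505 and 39701340 counts in siOSBPL3 and 33490163, 33667128 and 30040020 in siNC. Levels are given in CPM, counts scaled to a common library size with TMM factors. OSBPL3 had 40.2, 12.2 and 15.1 CPM in siOSBPL3, against 179, 174 and 175 CPM in siNC, so its level was lower in each siOSBPL3 library, least so in replicate 1. Replicates of siOSBPL3 differed more than those of siNC, with a chi-square per degree of freedom over genes of 18.4 to 48.9 in siOSBPL3 and 2.94 to 3.52 in siNC. Separate cultures are not stated for the replicates, so the p-values rest on a spread between libraries that may be only technical.

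The groups also differed in markers of cell type. Summed over 10 mesenchymal markers, the level was 9.33 to 11.8 CPM in siOSBPL3 and 787 to 802 CPM in siNC, and 12 colorectal epithelial markers summed to 4885 to 6015 CPM in siOSBPL3 and 7102 to 7180 CPM in siNC. The intermediate filament gene VIM averaged 1.65 CPM in siOSBPL3 and 694 CPM in siNC, and the intestinal transcription factor gene CDX2 averaged 63.5 CPM in siOSBPL3 and 1.16 CPM in siNC. LUM, the gene of the matrix proteoglycan lumican, was at 0 in siOSBPL3 and averaged 60.4 CPM in siNC. Of the labelled cell type's markers, EPCAM averaged 620 CPM in siOSBPL3 and 516 CPM in siNC, while the villin gene VIL1 averaged 62.6 CPM in siOSBPL3 and 482 CPM in siNC. The keratin gene KRT18 averaged 1131 CPM in siOSBPL3 and 2184 CPM in siNC, and KRT8 2383 CPM in siOSBPL3 and 2997 CPM in siNC. LGALS4 averaged 9.08 CPM in siOSBPL3 and 0.404 CPM in siNC, and KRT19 844 CPM in siOSBPL3 and 718.5 CPM in siNC. KRT19 turned lower after the correction described below (log2 fold change -0.74). Of the 10 epithelial markers tested, 4 were called higher and 3 lower before that correction. KRT20, CEACAM5, GPA33 and CDX1 were under 1 CPM in both groups. Neural markers, 6 in all, summed to 105 to 164 CPM in siOSBPL3 and 280 to 283 CPM in siNC, with DCX and NCAM1 at 0 in siOSBPL3 and ELAVL3 at 0 in siNC. Among them SYT1 averaged 0.254 CPM in siOSBPL3 and 215 CPM in siNC, while TUBB3 (129 CPM in siOSBPL3, 65.8 in siNC) and MAP2 (12.6 CPM in siOSBPL3, 0.198 in siNC) were higher in siOSBPL3, TUBB3 not past the threshold after the correction described below (adjusted p = 0.52). Endothelial markers summed to 0.848 to 1.52 CPM in siOSBPL3 and 1.42 to 2.38 CPM in siNC. Leukocyte markers summed to 11.7 to 17.4 CPM in siOSBPL3 and 20.4 to 22.9 CPM in siNC. Both sums held changes in both directions. Of the 4 leukocyte markers tested, CD14 (3.06 CPM in siOSBPL3, 0.278 in siNC) and CD8A (4.54 in siOSBPL3, 0.650 in siNC) were higher. CD68 (5.87 CPM in siOSBPL3, 19.0 in siNC) and LYZ (0.184 in siOSBPL3, 1.93 in siNC) were lower. Of the 3 endothelial markers tested, ERG was called higher (log2 fold change 5.67), VWF lower (-2.26) and PECAM1 was not called. The guidance genes called below changed beside these marker differences, whose part in the results was not tested. A difference between the cells of the 2 groups and an effect of the siRNA cannot be told apart, and in bulk libraries neither can fewer cells of a type and less RNA per cell.

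Of the 58 guidance genes, 47 passed the filter on low counts, and 43 of these (91.5%) differed between groups at an adjusted p under 0.05 (edgeR quasi-likelihood test, two-sided, Benjamini-Hochberg over 15506 genes). Over all genes tested the share was 80.2%, so passing the threshold by itself says little about the set. By direction, 29 guidance genes (61.7%) were higher and 14 (29.8%) lower in siOSBPL3, against 40.4% and 39.8% of all genes. The split changed with the base composition of the transcripts taken into account: with each library's counts corrected for transcript G+C content and length, 20 guidance genes were higher and 18 lower (42.6% and 38.3%), close to the 42.8% and 35.2% of all genes in that fit. At least 2-fold changes were called for 28 of the 47 (59.6%, against 48.9% of all genes), 19 of them higher (background 24.8%) and 9 lower (background 24.1%). In 41 of the 47 (87.2%) the 3 siOSBPL3 libraries did not overlap the 3 siNC libraries, against 83% of all genes.

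Large changes were counted as well. The log2 fold change, siOSBPL3 over siNC, was at least 3 in absolute value for 12 of 47 guidance genes (25.5%), against 14.3% of all genes, and the median absolute change was 1.20 against 1.00. The mean reached 1 CPM in only 1 of the groups for 10 of the 47. EFNB3, EPHA4 and ROBO1 reached it in siNC alone, and NTN1, NTN5, PLXNC1, ROBO3, SEMA6B, SLIT1 and UNC5A in siOSBPL3 alone. NTNG2 stayed under it in both groups. Of the 12 genes with the large changes, 8 are among these 10. The 36 genes at 1 CPM or more in both groups were set against the 11766 genes of the table that meet the same condition. Of the 36, 32 were called (88.9%, background 80.7%), 18 changed at least 2-fold (50%, background 39.5%) and 4 had a log2 fold change of at least 3 in absolute value (11.1%, background 3.53%). After the correction these 4 stood at -3.69 (EFNB2), 2.88 (EPHB4), -2.83 (NRP2) and -2.36 (SEMA3A), while EPHB6 reached -3.35. No background share at this size is given for the corrected fit. The median log2 fold change of the 47 was 0.66, with changes in both directions in every family but the netrins and UNC5 receptors, where NTN5 turned negative after the correction.

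**Figure D1:**
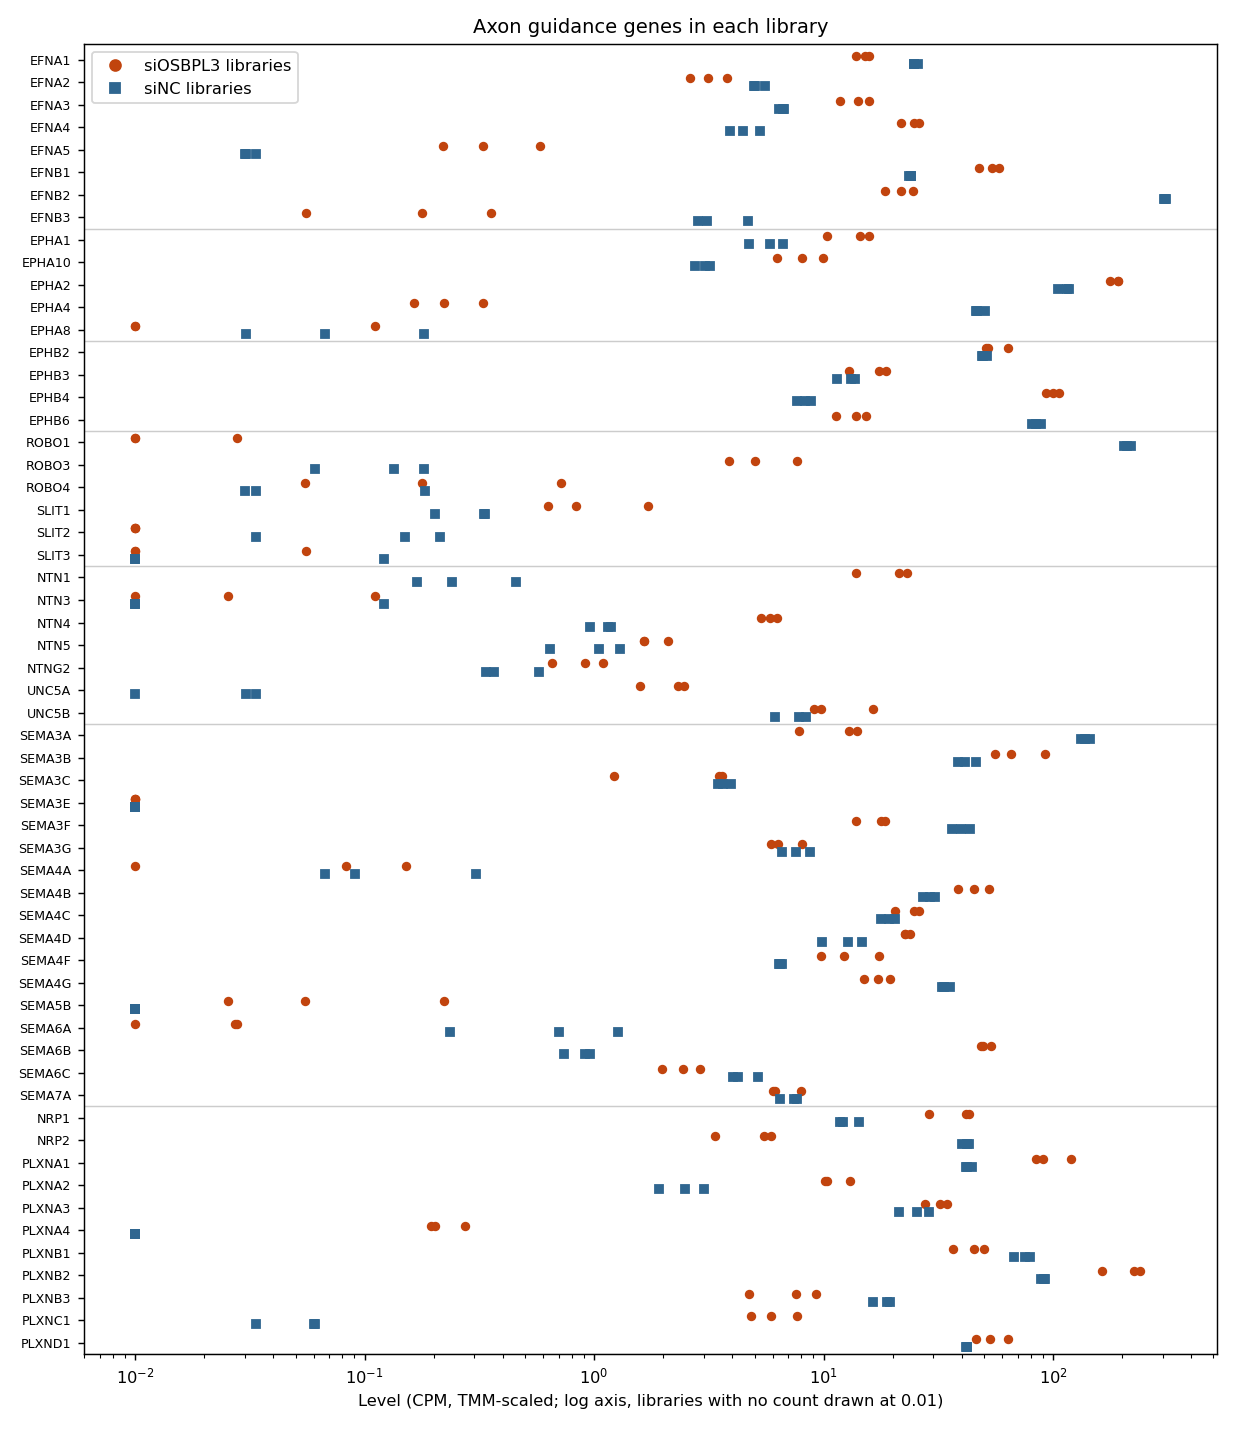
Level of each of the 58 guidance genes in each library (CPM, log axis; libraries with no count drawn at 0.01), with siOSBPL3 libraries as circles and siNC libraries as squares, ordered by family. ROBO1, EPHA4 and EFNB2 lie far lower in siOSBPL3 than in siNC, and NTN1, PLXNC1, UNC5A and SEMA6B far higher.

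The genes called higher had a median transcript G+C content of 61.3% and those called lower 58.8%. Over 14435 genes with a transcript, the log2 fold change had a Spearman rho of 0.38 with G+C content and of -0.21 with length, as a description across genes of the same 6 libraries. The correction moved the fold changes of the guidance genes by a median of -0.59 on the log2 scale. The median log2 fold change of all genes was 0.105 in the corrected fit (14435 genes) and -0.001 in the main fit (15506 genes). All 16 guidance genes with a log2 fold change of at least 2 in absolute value kept their sign and call under the correction. The smallest of these corrected changes was 1.64 in absolute value. Below, the corrected value is given for genes whose sign or call it turned or whose fold it moved by over 1.5 times.

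Ephrin ligands changed in composition more than in any common direction: 3 of the 7 tested were higher and 4 lower, against 40.4% and 39.8% of all genes. EFNB2, a transmembrane ligand of EPHB receptors and the leading ephrin in siNC, had 18.5, 21.8 and 24.4 CPM in siOSBPL3, against 305, 308 and 310.2 CPM in siNC. All siOSBPL3 libraries lay far below all siNC libraries, and the log2 fold change was -3.83 ± 0.11 (SE; edgeR adjusted p = 3.7e-11). EFNB3, a B-type ephrin best known from the nervous system, had 0.0554, 0.356 and 0.177 CPM in siOSBPL3, against 2.83, 4.67 and 3.10 CPM in siNC. It was thus near the limit of detection in siOSBPL3, with a log2 fold change of -4.15 ± 0.50 (edgeR adjusted p = 7.5e-06), or -4.85 without siOSBPL3 replicate 2 and -4.74 after the correction. EFNB1, the remaining B-type ephrin, went the other way, with 58.0, 54.0 and 47.5 CPM in siOSBPL3 and 24.1, 23.7 and 23.9 CPM in siNC. Its log2 fold change was 1.15 ± 0.10 (edgeR adjusted p = 3.3e-07), and 0.47 after the correction.

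Among the A-type ephrins, which are tethered by a GPI anchor and bind mainly EPHA receptors, EFNA4 and EFNA3 were higher and EFNA1 and EFNA2 lower. EFNA4 had 25.9, 24.8 and 21.8 CPM in siOSBPL3, against 5.27, 4.46 and 3.91 CPM in siNC, a log2 fold change of 2.41 ± 0.14 (edgeR adjusted p = 1.5e-08; 1.64 corrected). EFNA3 had 15.7, 14.2 and 11.8 CPM in siOSBPL3, against 6.73, 6.39 and 6.68 CPM in siNC, a log2 fold change of 1.07 ± 0.15 (edgeR adjusted p = 2.7e-05). The groups did not overlap for either gene, but the correction for G+C content and length ended the call of EFNA3 (0.18, adjusted p = 0.23). EFNA1, a ligand of EPHA2, had 15.8, 15.1 and 13.8 CPM in siOSBPL3, against 24.7, 24.8 and 25.8 CPM in siNC. Its log2 fold change was -0.75 ± 0.10 (edgeR adjusted p = 2.9e-05), and -1.44 after the correction. EFNA2 fell by 0.70 on the log2 scale, or by 2.30 with the correction (edgeR adjusted p = 0.0093 and 1.5e-06). EFNA5 was too low to be tested, with 42 counts over the siOSBPL3 group and 3 over siNC, a ratio of 11.9 in CPM with a 95% counting interval of 3.81 to 60.2. Such intervals cover counting error only.

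EFNA4, EFNA3 and EFNA1 lie side by side on chromosome 1 (GRCh38.p14, 155063740-155069553, 155078837-155087538 and 155127876-155134899), with gaps of 9.3 kb and 40.3 kb. EFNA4 and EFNA3 were higher and EFNA1 lower, so the direction was not shared along this stretch.

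Of the EPHA receptors, 3 of the 4 tested were higher and EPHA4 was lower, against 40.4% higher and 39.8% lower over all genes. EPHA4 (chromosome 2, 221418027-221574202, GRCh38.p14), which binds ephrins of both types, had 0.222, 0.164 and 0.329 CPM in siOSBPL3, against 46.1, 46.6 and 50.6 CPM in siNC. The gene was near the limit of detection in all siOSBPL3 libraries and well detected in all siNC libraries, with a log2 fold change of -7.61 ± 0.18 (edgeR adjusted p = 8.2e-12), the second largest fall of the set after ROBO1. EPHA2, an epithelial receptor tyrosine kinase studied in many carcinomas, had 191, 191 and 176.5 CPM in siOSBPL3, against 105, 115 and 117 CPM in siNC. It was the leading EPHA gene per transcript length in both groups, and its log2 fold change of 0.73 ± 0.08 (edgeR adjusted p = 4.9e-06) did not hold after the correction (0.13, adjusted p = 0.092). EPHA1, the founding member of the EPH family, had 15.7, 14.4 and 10.4 CPM in siOSBPL3, against 4.72, 5.84 and 6.68 CPM in siNC, a log2 fold change of 1.23 ± 0.19 (edgeR adjusted p = 7.0e-05; 0.61 corrected). EPHA10, which lacks an active kinase, had 9.91, 8.01 and 6.30 CPM in siOSBPL3, against 2.74, 3.04 and 3.20 CPM in siNC, a log2 fold change of 1.43 ± 0.21 (edgeR adjusted p = 4.7e-05; 0.77 corrected). Neither gene's groups overlapped. EPHA8 was not tested, with no library above 0.181 CPM.

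EPHB receptors exchanged their leading member. EPHB4, the receptor for EFNB2, had 99.7, 106.5 and 93.3 CPM in siOSBPL3, against 8.28, 7.62 and 8.80 CPM in siNC. All siOSBPL3 libraries lay far above all siNC libraries, and the log2 fold change was 3.60 ± 0.10 (edgeR adjusted p = 2.7e-11; 2.88 corrected). EPHB6, whose kinase domain is inactive, had 15.4, 13.9 and 11.3 CPM in siOSBPL3, against 80.6, 84.4 and 88.8 CPM in siNC. It was lower in every siOSBPL3 library, by -2.65 ± 0.12 in log2 fold change (edgeR adjusted p = 9.5e-10; -3.35 corrected). EPHB2 and EPHB3, receptors of the crypt base in the intestine, differed far less. EPHB2 had 50.9, 63.7 and 52.2 CPM in siOSBPL3 and 51.7, 49.0 and 49.5 CPM in siNC, overlapping groups with a log2 fold change of 0.15 ± 0.10 (edgeR adjusted p = 0.17). Leaving out siOSBPL3 replicate 1 brought it past the threshold (0.22, adjusted p = 0.037), as did the correction (0.32, adjusted p = 0.0044). EPHB3, at 17.5, 18.7 and 12.9 CPM in siOSBPL3 and 11.4, 13.7 and 13.1 CPM in siNC, also overlapped (0.36 ± 0.15, edgeR adjusted p = 0.045). Its call was lost on leaving out any library but siOSBPL3 replicate 3 (adjusted p from 0.065 to 0.17), and it turned to -0.35 after the correction.

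EPHB6 and EPHA1, 520.0 kb apart on chromosome 7 (142855076-142871093 and 143391129-143408856, GRCh38.p14), moved in opposite directions.

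**Figure D2:**
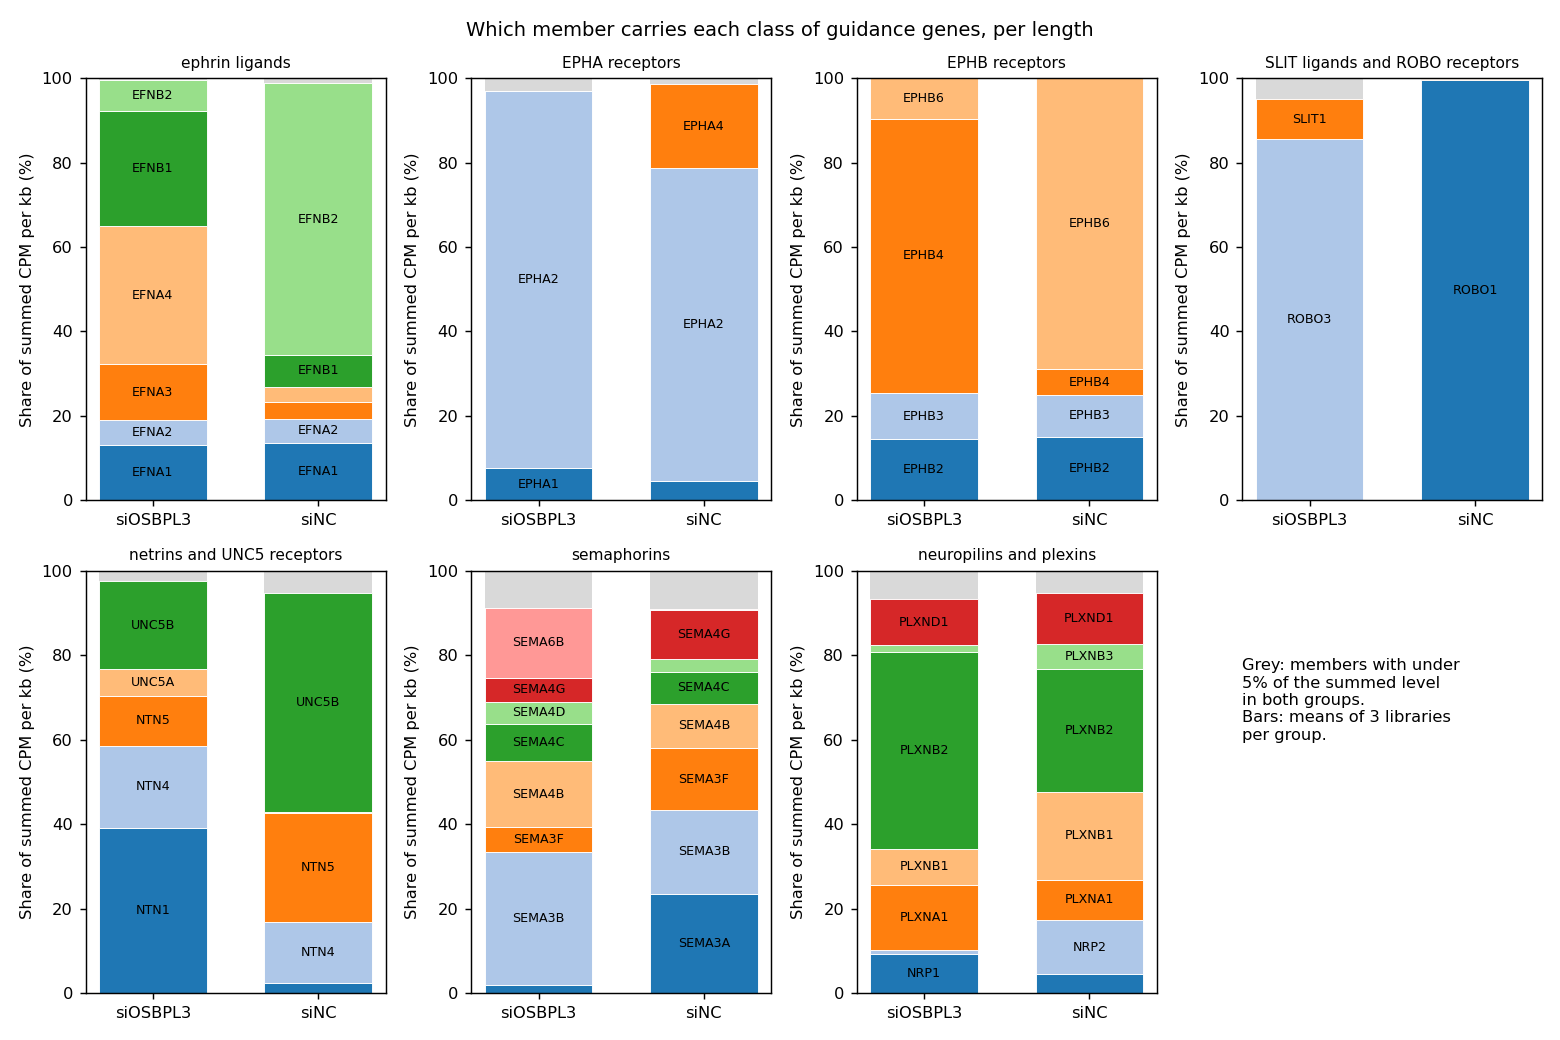
Make-up of each family's summed level per transcript length (stacked percent of the family's CPM per kb, mean of 3 libraries per group; grey, genes under 5% in both groups), with the siOSBPL3 bar beside the siNC bar. EPHB4 takes 65.1% of the EPHB level in siOSBPL3 and EPHB6 takes 68.9% in siNC, and EFNB2 takes 7.38% of the ephrin level in siOSBPL3 and 64.4% in siNC.

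To compare levels between genes, CPM were divided by transcript length. On this scale the summed ephrin level was 58.5 ± 4.98 CPM per kb in siOSBPL3 and 95.7 ± 0.190 in siNC (SD, n = 3 each). EFNB2 made up 7.38% of that sum in siOSBPL3 and 64.4% in siNC. EFNA4 made up 32.7% in siOSBPL3 and 3.76% in siNC, and EFNB1 27.4% in siOSBPL3 and 7.54% in siNC. EFNA4 led the ephrins in siOSBPL3, at 19.1 ± 1.67 CPM per kb, with EFNB1 next at 16.0 ± 1.60. The order held in each siOSBPL3 library, with EFNA4 at 32.6%, 32.9% and 32.5% of the ephrin sum and EFNB1 at 27.8%, 27.4% and 27%. In siNC EFNB2 led at 61.6 ± 0.536, with EFNA1 next at 13.0 ± 0.321 CPM per kb. For EPHB receptors the sums stood closer, at 35.4 ± 3.07 CPM per kb in siOSBPL3 and 30.6 ± 1.18 in siNC, while EPHB4 took 65.1% in siOSBPL3 and 6.21% in siNC. EPHB6 took 9.52% of the EPHB sum in siOSBPL3 and 68.9% in siNC. The EPHA sum was 52.5 ± 3.22 CPM per kb in siOSBPL3 and 38.1 ± 2.29 in siNC, of which EPHA2 made up 89.4% in siOSBPL3 and 74.3% in siNC, and EPHA4 0.0714% in siOSBPL3 and 19.8% in siNC.

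The stretches around the transcription starts are shown for the most reduced receptors, ROBO1 and EPHA4, and for the ligand and receptor that moved in opposite directions, EFNB2 and EPHB4. Each runs from 250 bases before to 50 bases after the RefSeq start on GRCh38.p14, 5′ to 3′ on the gene's own strand (the minus strand for all 4), with CG dinucleotides in capitals. The windows are chr3:79767949-79768248 (ROBO1), chr2:221574153-221574452 (EPHA4), chr13:106535613-106535912 (EFNB2) and chr7:100827474-100827773 (EPHB4).
ROBO1: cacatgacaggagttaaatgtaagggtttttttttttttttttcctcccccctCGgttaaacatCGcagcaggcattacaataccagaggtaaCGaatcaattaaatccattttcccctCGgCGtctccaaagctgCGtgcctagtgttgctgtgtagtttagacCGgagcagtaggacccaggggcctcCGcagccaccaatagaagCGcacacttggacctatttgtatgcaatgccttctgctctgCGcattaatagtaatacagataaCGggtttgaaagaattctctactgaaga
EPHA4: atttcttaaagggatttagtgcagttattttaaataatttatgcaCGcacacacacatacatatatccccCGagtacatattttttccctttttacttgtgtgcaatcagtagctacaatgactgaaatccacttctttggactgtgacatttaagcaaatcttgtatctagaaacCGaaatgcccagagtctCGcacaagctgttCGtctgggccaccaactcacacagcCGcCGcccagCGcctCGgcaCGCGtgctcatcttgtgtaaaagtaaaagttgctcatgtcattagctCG
EFNB2: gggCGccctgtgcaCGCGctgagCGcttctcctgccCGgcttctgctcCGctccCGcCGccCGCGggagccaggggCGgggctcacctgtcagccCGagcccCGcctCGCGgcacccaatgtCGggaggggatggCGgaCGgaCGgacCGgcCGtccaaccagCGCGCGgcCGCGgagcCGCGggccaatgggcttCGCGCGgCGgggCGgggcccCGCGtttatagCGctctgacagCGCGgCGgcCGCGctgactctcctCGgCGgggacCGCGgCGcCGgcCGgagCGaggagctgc
EPHB4: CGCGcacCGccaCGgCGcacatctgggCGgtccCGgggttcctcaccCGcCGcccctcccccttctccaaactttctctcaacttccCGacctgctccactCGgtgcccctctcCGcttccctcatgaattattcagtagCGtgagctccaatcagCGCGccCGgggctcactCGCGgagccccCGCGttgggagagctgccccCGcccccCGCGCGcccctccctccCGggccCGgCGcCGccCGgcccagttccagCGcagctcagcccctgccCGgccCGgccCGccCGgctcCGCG
ROBO1 and EPHA4 held 11 and 12 CG dinucleotides in windows of 45.3% and 43.0% G+C, while EFNB2 and EPHB4 held 49 and 36 in windows of 78.7% and 74.3%. The windows of ROBO1 and EPHA4 were thus low in G+C, with observed-to-expected CpG ratios of 0.72 and 0.89. Those of EFNB2, which fell, and EPHB4, which rose, were both high in G+C, with ratios of 1.06 and 0.97.

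RefSeq windows of this kind were found for 48 of the 58 guidance genes, and these were richer in CG than all promoters of the reference. That background was not limited to the genes tested here, so the 2 sets may differ in kind of gene. Their median G+C content was 67.5% with 22.5 CG dinucleotides and an observed-to-expected ratio of 0.731, against 58.3%, 14 and 0.580 over 27303 promoters. By call, the median G+C content was 68.0% for the genes higher in siOSBPL3 (23 with a window) and 70.9% for those lower (12 with a window). The TATA box core TATAAA, searched on both strands, occurred in 1 of the 48 windows (2.08%, EFNB2, on the reverse strand), against 11.95% of all promoters. GGAATG, the core bound by TEAD factors, which act with the YAP named in the title of the series, occurred in 5 (10.4%: EPHA2, NTN4, PLXNB3, ROBO3 and SEMA4A), against 14.1% of all. Of these 5, EPHA2, NTN4 and ROBO3 were higher, PLXNB3 was lower and SEMA4A was not tested. A match describes letters in this window and nothing about binding. Only 1 window was used per gene, and for some genes, PLXNC1, ROBO3 and SEMA4A among them, it lies at a start inside the gene.

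SLIT ligands and ROBO receptors gave the extreme case. ROBO1 (chromosome 3, 78597239-79767998, GRCh38.p14), the main SLIT receptor of many tissues, had 0.0277 CPM in siOSBPL3 replicate 1 and 0 in replicates 2 and 3, against 203, 218 and 210.4 CPM in siNC. That is 1 count over the siOSBPL3 group and 20153 counts over siNC. The level in siOSBPL3 was lower by a ratio of 23600 in CPM, with a 95% counting interval of 4240 to 934000 (edgeR adjusted p = 1.2e-12). The fitted log2 value, -14.04, depends on the prior count and was -15.82 without the library that held the count. ROBO3, known in mouse for letting commissural axons cross the midline, was low in siNC and rose. It had 7.64, 5.004 and 3.87 CPM in siOSBPL3, against 0.0609, 0.181 and 0.135 CPM in siNC, a log2 fold change of 5.41 ± 0.44 (edgeR adjusted p = 2.1e-07; 4.69 corrected). The family's sum was 1.41 ± 0.565 CPM per kb in siOSBPL3 and 28.2 ± 0.970 in siNC, with ROBO1 at 0.0873% of the sum in siOSBPL3 and 99.6% in siNC.

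SLIT ligands were scarce in both groups. SLIT1 had 1.72, 0.629 and 0.834 CPM in siOSBPL3, against 0.335, 0.331 and 0.202 CPM in siNC, a log2 fold change of 1.85 ± 0.52 (edgeR adjusted p = 0.0060), with replicate 1 the highest of the siOSBPL3 libraries. SLIT2 had 0 counts over siOSBPL3 and 13 over siNC, at least 5.08-fold lower when siOSBPL3 is set to 3 counts over the group. SLIT3 had 2 counts over siOSBPL3 and 4 over siNC, too few to compare. ROBO4, an endothelial receptor that lies 2.2 kb from ROBO3 on chromosome 11 (124883691-124897865 and 124865432-124881471, GRCh38.p14), was not tested and did not exceed 0.720 CPM in any library.

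Netrins and UNC5 receptors were the family in which every tested gene was higher, 6 of 6, although 3 of these calls were weak and NTN5 turned negative after the correction. Over all genes, 40.4% were called higher. NTN1, the secreted netrin that attracts or repels axons, had 13.8, 21.4 and 23.0 CPM in siOSBPL3, against 0.457, 0.241 and 0.169 CPM in siNC. It was close to undetected in siNC and plain in each siOSBPL3 library, and the log2 fold change was 6.04 ± 0.31 (edgeR adjusted p = 4.2e-09). UNC5A, a dependence receptor for netrin, had 1.58, 2.32 and 2.45 CPM in siOSBPL3, against 0.0304, 0 and 0.0337 CPM in siNC. With 239 counts over siOSBPL3 and 2 over siNC, the ratio in CPM was 102, with a 95% counting interval of 27.9 to 846 (edgeR adjusted p = 1.3e-06; the fitted log2 value was 6.44, and 5.63 corrected). NTN4, a netrin related to laminins, had 5.32, 5.82 and 6.30 CPM in siOSBPL3, against 1.19, 0.964 and 1.15 CPM in siNC, a log2 fold change of 2.40 ± 0.23 (edgeR adjusted p = 1.2e-06). The replicates of each group lay close together for NTN4.

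UNC5B, which led the family per length in siNC, had 16.4, 9.11 and 9.78 CPM in siOSBPL3, against 6.15, 7.80 and 8.40 CPM in siNC (log2 fold change 0.66 ± 0.22, edgeR adjusted p = 0.016). Replicate 1 stood above the other siOSBPL3 libraries, and without it the log2 fold change was 0.35 (adjusted p = 0.052). Without siNC replicate 1 the adjusted p was 0.077, and after the correction the value was 0.30 (adjusted p = 0.23). NTN5 (0.85 ± 0.36, edgeR adjusted p = 0.045) and NTNG2 (1.05 ± 0.45, edgeR adjusted p = 0.046) each lost the call when any of 5 libraries was left out, and NTN5 turned to -0.38 after the correction. NTNG2 was 0.40 after the correction (adjusted p = 0.39). NTN3 was not tested, with no library above 0.122 CPM. The sum of the family was 8.31 ± 0.365 CPM per kb in siOSBPL3 and 2.10 ± 0.261 in siNC, of which NTN1 made up 39.2% in siOSBPL3 and 2.31% in siNC. UNC5B made up 20.7% in siOSBPL3 and 51.9% in siNC.

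**Figure D3:**
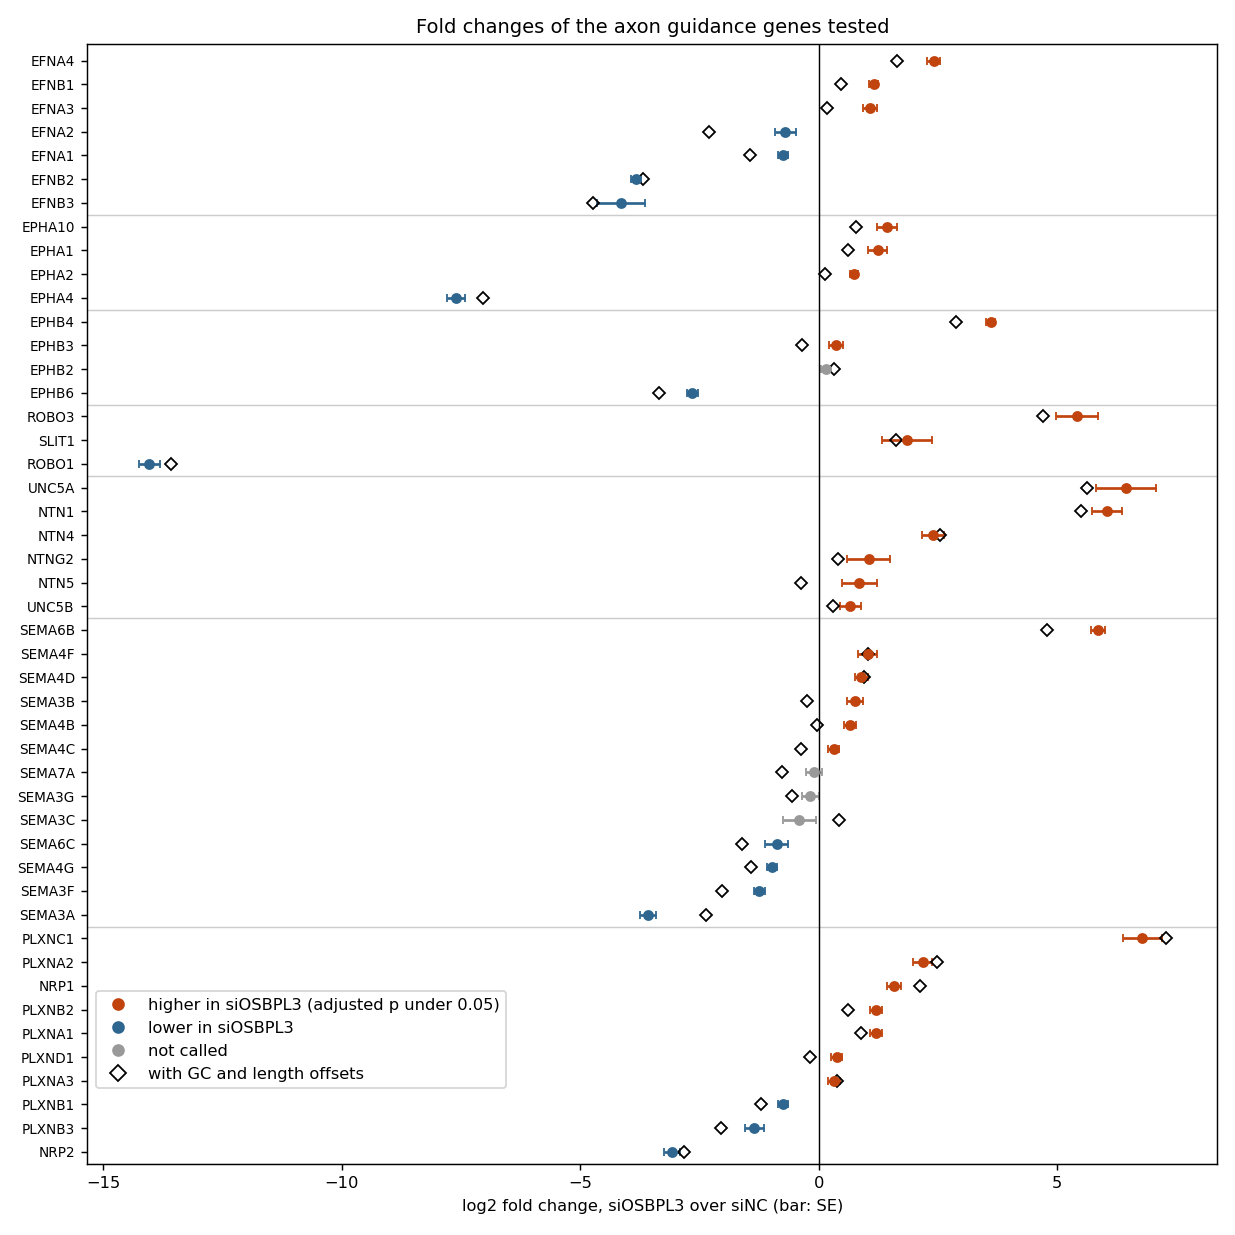
Log2 fold change of each of the 47 tested guidance genes, siOSBPL3 over siNC (edgeR; circles coloured by call, bars are ± SE, diamonds the value after correction for transcript G+C content and length), grouped by family; the value of ROBO1 depends on the prior count. Netrins and UNC5 receptors lie above 0 before the correction, which puts NTN5 below it, and other families hold changes on both sides.

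Semaphorins, the largest family with 17 genes, changed in mixed directions. Of the 13 tested, 6 were higher (46.2%), 4 lower (30.8%) and 3 not called, against 40.4% higher and 39.8% lower over all genes. SEMA3B, SEMA4B and SEMA4C of the higher ones turned after the correction. The summed level of the semaphorins was 76.0 ± 9.56 CPM per kb in siOSBPL3 and 71.6 ± 3.04 in siNC, a difference smaller than the spread of the siOSBPL3 libraries. Within that sum, SEMA3A made up 1.85% in siOSBPL3 and 23.5% in siNC, SEMA6B 16.7% in siOSBPL3 and 0.306% in siNC, and SEMA3B 31.6% in siOSBPL3 and 19.9% in siNC.

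Class 3 semaphorins are secreted and repel axons and endothelial cells. SEMA3A, the ligand of NRP1, had 7.78, 12.9 and 14.0 CPM in siOSBPL3, against 137, 145 and 132 CPM in siNC, and led the semaphorins per length in siNC. All siOSBPL3 libraries were far lower, with a log2 fold change of -3.58 ± 0.17 (edgeR adjusted p = 2.3e-09), or -2.36 after the correction, which moved this AT-rich transcript (36.7% G+C) upwards. SEMA3F, a ligand of NRP2, had 17.8, 18.5 and 13.9 CPM in siOSBPL3, against 36.2, 43.3 and 39.5 CPM in siNC, a log2 fold change of -1.25 ± 0.12 (edgeR adjusted p = 1.5e-06; -2.03 corrected). SEMA3B, a class 3 semaphorin studied as a tumour suppressor, had 92.1, 65.4 and 55.6 CPM in siOSBPL3, against 38.5, 41.5 and 46.3 CPM in siNC. Although these groups did not overlap (log2 fold change 0.76 ± 0.16, edgeR adjusted p = 7.3e-04), the direction turned after the correction (-0.24, adjusted p = 0.12). SEMA3F and SEMA3B lie 71.2 kb apart on chromosome 3 (50155058-50189075 and 50260226-50277546, GRCh38.p14). SEMA3C had 1.22, 3.50 and 3.62 CPM in siOSBPL3 and 3.65, 3.46 and 3.95 CPM in siNC, overlapping apart from the low replicate 1 of siOSBPL3, and was not called (-0.41 ± 0.35, edgeR adjusted p = 0.30; 0.42 corrected, adjusted p = 0.28). SEMA3G, with a log2 fold change of -0.18 ± 0.18 (edgeR adjusted p = 0.38), was not called either, though it passed after the correction (-0.57, adjusted p = 0.013). SEMA3E had no count in any library.

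Membrane-bound semaphorins of class 4 act through plexins of the B and D types. SEMA4D, the ligand of PLXNB1, had 22.6, 23.7 and 22.7 CPM in siOSBPL3, against 9.80, 14.7 and 12.7 CPM in siNC, a log2 fold change of 0.89 ± 0.14 (edgeR adjusted p = 9.8e-05). SEMA4F had 17.4, 12.3 and 9.78 CPM in siOSBPL3, against 6.48, 6.57 and 6.37 CPM in siNC, a log2 fold change of 1.02 ± 0.20 (edgeR adjusted p = 4.3e-04). Both were higher in every siOSBPL3 library, and both kept their size after the correction (0.94 and 1.04). SEMA4G had 17.2, 19.4 and 15.02 CPM in siOSBPL3, against 32.9, 33.5 and 35.6 CPM in siNC, a log2 fold change of -0.98 ± 0.11 (edgeR adjusted p = 5.5e-06). SEMA4B and SEMA4C were called higher, at 0.65 ± 0.12 and 0.31 ± 0.12, but both turned to the other side of 0 after the correction (-0.04 and -0.37). SEMA4C also lost its call without siOSBPL3 replicate 2, siNC replicate 1 or siNC replicate 3 (adjusted p from 0.080 to 0.12).

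SEMA6B, a transmembrane semaphorin that binds class A plexins, showed the steepest rise of its family. It had 48.3, 53.8 and 49.7 CPM in siOSBPL3, against 0.913, 0.964 and 0.742 CPM in siNC, a log2 fold change of 5.85 ± 0.14 (edgeR adjusted p = 9.2e-12; 4.78 corrected). The siOSBPL3 libraries were alike, and the siNC libraries were all below 1 CPM. SEMA6C was lower (-0.88 ± 0.24, edgeR adjusted p = 0.0046; -1.62 corrected). SEMA6A, too low to be tested, had 2 counts over siOSBPL3 and 72 over siNC, lower by a ratio of 42.2 in CPM with a 95% counting interval of 11.3 to 355. SEMA7A, a GPI-anchored ligand of PLXNC1 and of integrins, had 6.04, 7.93 and 6.14 CPM in siOSBPL3 and 7.43, 6.45 and 7.62 CPM in siNC. Its groups overlapped and it was not called (-0.10 ± 0.17, edgeR adjusted p = 0.62), while after the correction it was (-0.78, adjusted p = 0.0011). SEMA5B had 11 counts over siOSBPL3 and 0 over siNC, at least 3.13-fold higher against 3 counts over the siNC group. SEMA4A was not tested and stayed at or below 0.304 CPM.

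All 10 tested neuropilins and plexins were called, beside 80.2% of all genes. Of them 7 were higher and 3 lower, against 40.4% and 39.8% of all genes, and PLXND1 of the higher ones turned after the correction. The neuropilins, coreceptors of class 3 semaphorins and of VEGF, moved in opposite directions. NRP1 had 28.8, 41.9 and 42.9 CPM in siOSBPL3, against 11.8, 14.3 and 12.1 CPM in siNC, a log2 fold change of 1.57 ± 0.15 (edgeR adjusted p = 1.3e-06). NRP2 had 3.38, 5.50 and 5.89 CPM in siOSBPL3, against 42.9, 40.1 and 42.3 CPM in siNC, a log2 fold change of -3.08 ± 0.17 (edgeR adjusted p = 7.8e-09). For both genes replicate 1 was the lowest of the siOSBPL3 libraries, and the groups were apart. PLXNC1, the SEMA7A receptor known from immune cells and melanocytes, had 7.67, 5.91 and 4.80 CPM in siOSBPL3, against 0.0609, 0.0603 and 0.0337 CPM in siNC, a log2 fold change of 6.78 ± 0.41 (edgeR adjusted p = 1.6e-08).

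Plexins of the A type, which form receptor complexes with neuropilins, were all higher among the 3 tested, beside 40.4% of all genes. PLXNA2 had 10.1, 13.0 and 10.4 CPM in siOSBPL3, against 1.92, 2.50 and 3.00 CPM in siNC, a log2 fold change of 2.18 ± 0.20 (edgeR adjusted p = 8.3e-07). PLXNA1 had 84.5, 119.6 and 90.4 CPM in siOSBPL3, against 41.8, 42.0 and 44.2 CPM in siNC, a log2 fold change of 1.20 ± 0.12 (edgeR adjusted p = 1.5e-06). These 2 genes were separated between groups, whereas PLXNA3 overlapped (0.32 ± 0.13, edgeR adjusted p = 0.038) and lost its call without siOSBPL3 replicate 2, siNC replicate 1 or siNC replicate 2 (adjusted p from 0.079 to 0.19). PLXNA4 had 25 counts over siOSBPL3 and 0 over siNC, at least 7.11-fold higher against 3 counts over the siNC group.

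B-type plexins bind class 4 semaphorins directly, and PLXNB2 led the family per length in both groups. PLXNB2 had 239, 226 and 163 CPM in siOSBPL3, against 88.8, 92.0 and 91.5 CPM in siNC, a log2 fold change of 1.20 ± 0.13 (edgeR adjusted p = 2.3e-06). PLXNB1 had 45.4, 50.1 and 36.8 CPM in siOSBPL3, against 67.8, 79.3 and 75.6 CPM in siNC, a log2 fold change of -0.75 ± 0.11 (edgeR adjusted p = 6.1e-05). PLXNB3 had 9.28, 7.55 and 4.75 CPM in siOSBPL3, against 16.4, 19.5 and 19.0 CPM in siNC, a log2 fold change of -1.35 ± 0.20 (edgeR adjusted p = 5.9e-05; -2.06 corrected). So within this type the most abundant gene rose and both others fell, with no overlap between groups. PLXND1, a receptor known for its role in vessels, was called higher by a small margin (0.37 ± 0.11, edgeR adjusted p = 0.0086) that turned to -0.19 after the correction (adjusted p = 0.053). The sum of neuropilins and plexins was 70.3 ± 9.45 CPM per kb in siOSBPL3 and 48.8 ± 1.72 in siNC. PLXNB2 made up 46.6% in siOSBPL3 and 29.1% in siNC, and NRP2 1.05% in siOSBPL3 and 12.8% in siNC.

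Set side by side, textbook ligand and receptor pairs stood at different ratios in the groups. These pairs were chosen with their values known, and the ratios are a description with no test. Per transcript length, the ratio of EPHB4 to EFNB2 was 6.22, 5.64 and 4.41 in siOSBPL3, against 0.0314, 0.0286 and 0.0327 in siNC. The receptor thus exceeded the ligand in every siOSBPL3 library and fell short of it in every siNC library. The ratio of NRP1 to SEMA3A was 5.18, 4.55 and 4.28 in siOSBPL3, against 0.120, 0.138 and 0.128 in siNC, again with the receptor above the ligand in siOSBPL3 alone. For NTN1 and UNC5B it ran the other way: the receptor stood at 1.03, 0.371 and 0.371 times the ligand in siOSBPL3 and at 11.7, 28.2 and 43.3 times in siNC. The ratio of PLXNC1 to SEMA7A was 0.584, 0.342 and 0.359 in siOSBPL3, against 0.00377, 0.00430 and 0.00203 in siNC, with the ligand above the receptor in all 6 libraries. PLXNB1 to SEMA4D gave 1.57, 1.65 and 1.26 in siOSBPL3, against 5.38, 4.19 and 4.61 in siNC. NRP2 to SEMA3F gave 0.109, 0.170 and 0.242 in siOSBPL3, against 0.676, 0.529 and 0.611 in siNC, so both of these ratios were lower in siOSBPL3 on the same side of 1. EPHA2 to EFNA1 gave 5.86, 6.14 and 6.22 in siOSBPL3, against 2.06, 2.25 and 2.203 in siNC.

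ROBO1 and its ligand SLIT2 were both close to 0 in siOSBPL3, where no ratio is given, and in siNC the receptor stood far above the scarce ligand in all 3 libraries.

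**Figure D4:**
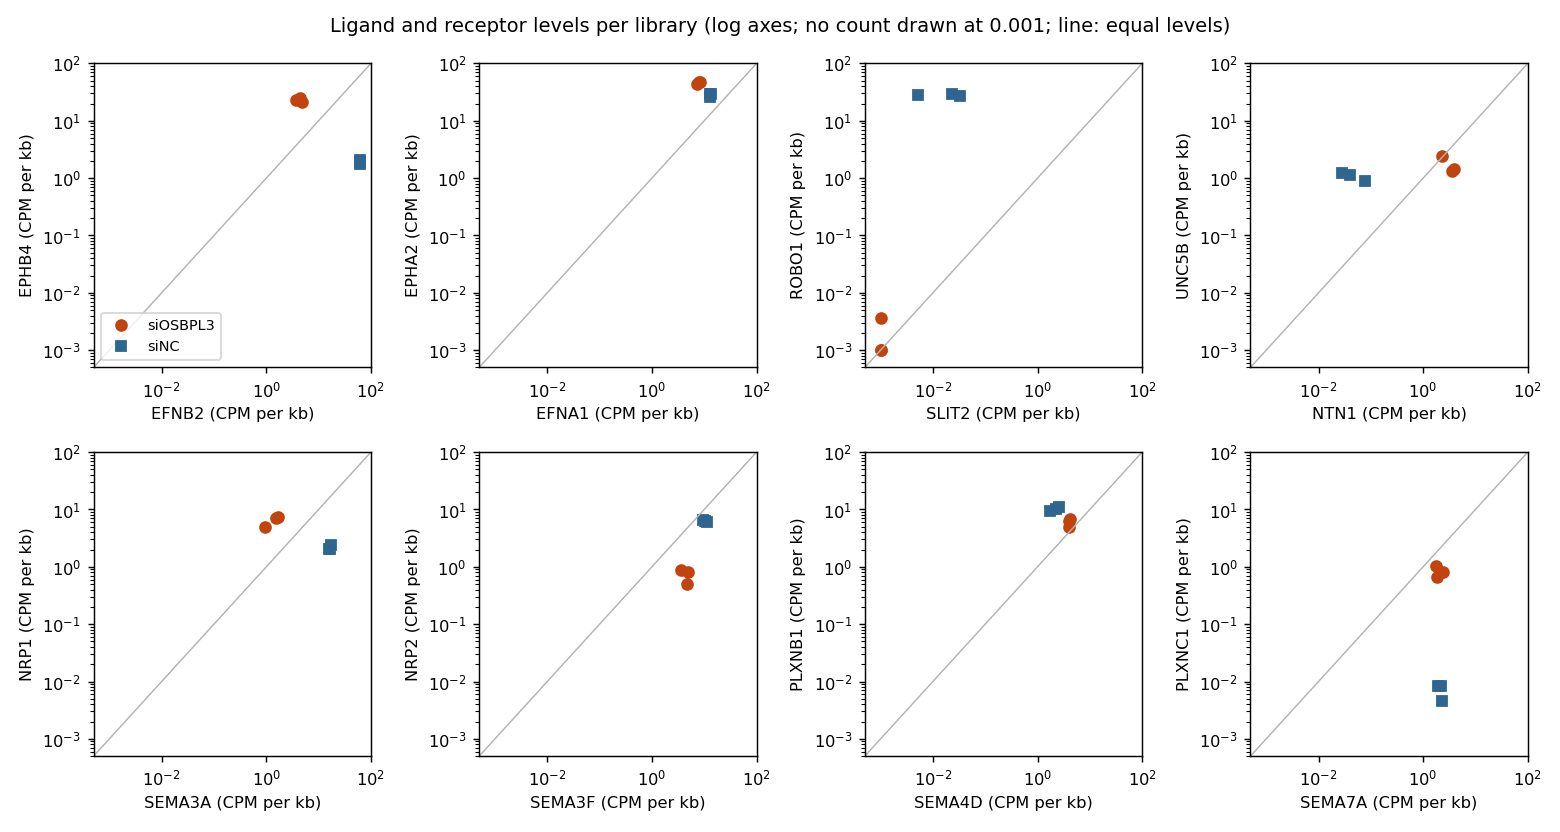
Receptor level against ligand level in each library for 8 pairs (CPM per kb, log axes, no count drawn at 0.001), with siOSBPL3 libraries as circles, siNC libraries as squares and a line at equal levels. For EPHB4 with EFNB2 and for NRP1 with SEMA3A the siOSBPL3 libraries lie above the line and the siNC libraries below it.

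By role, 14 of the 25 tested ligands (semaphorins included) were higher, 8 lower and 3 not called (56.0% and 32.0% higher and lower). Of the 22 tested receptors and coreceptors, 15 were higher, 6 lower and 1 not called (68.2% and 27.3%). Over all genes, 40.4% were higher and 39.8% lower. EPHB3, NTN5, PLXND1, SEMA3B, SEMA4B and SEMA4C count as higher in these role counts and turned negative after the correction. With the correction, 42.6% of the 47 tested guidance genes were higher and 38.3% lower, close to the 42.8% and 35.2% of all genes in that fit. Changes of at least 2-fold were called for 13 of the 25 ligands (52.0%) and 15 of the 22 receptors (68.2%), beside the 48.9% of all genes. The larger share among receptors did not hold after the correction. Of the receptors, EPHA1 (0.61), EPHA10 (0.77), PLXNA1 (0.89) and PLXNB2 (0.62) then fell under 2-fold, and PLXNB1 (-1.22) passed it. Of the ligands, EFNA3 (0.18), EFNB1 (0.47) and NTNG2 (0.40) fell under it, and EFNA1 (-1.44), EFNA2 (-2.30), SEMA4G (-1.42) and SEMA6C (-1.62) passed it.

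Spread between libraries was wider in siOSBPL3. Over the 36 guidance genes at 1 CPM or more in both groups, the median coefficient of variation was 15.7% in siOSBPL3 and 7.05% in siNC, and it was larger in siOSBPL3 for 29 of the 36. Replicate 1 of siOSBPL3, which kept the most OSBPL3, was the highest of its group for 16 of these genes, the lowest for 11 and in the middle for 9, so it did not sit on a fixed side.

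Antisense genes of the families were counted separately, and the strand setting of the counting is not given in the sources used here, so their reads and those of overlapping sense genes cannot be told apart. EPHA2-AS1 had 121, 71 and 98 counts in siOSBPL3, against 399, 366 and 349 in siNC (log2 fold change -2.17 ± 0.20, edgeR adjusted p = 8.5e-07), opposite in direction to EPHA2. UNC5B-AS1 had 53, 16 and 18 counts in siOSBPL3, against 0, 2 and 6 in siNC (3.16 ± 0.85, edgeR adjusted p = 0.0044), highest in the library where UNC5B was highest. PLXNB3-AS1 was lower like PLXNB3 (-2.65 ± 0.49, edgeR adjusted p = 3.1e-04).

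Other genes of the pathway moved without a shared direction. Of 46 tested intracellular effectors, which carry guidance signals to the cytoskeleton, 20 were higher, 20 lower and 6 not called, 87.0% called beside the 80.2% of all genes. The adaptor gene GRB10 rose most clearly (log2 fold change 3.60 ± 0.10, edgeR adjusted p = 2.6e-11), followed by the adaptor SHB (1.57 ± 0.10; 0.61 corrected), MICALL1 (1.64 ± 0.11; 1.01 corrected) and the cofilin kinase LIMK1 (1.71 ± 0.12; 1.01 corrected). DPYSL3, a collapsin response mediator, fell by 4.17 ± 0.11 on the log2 scale (edgeR adjusted p = 1.9e-11). FYN, a kinase downstream of EPH receptors and plexins, fell by 3.16 ± 0.09. The RhoA exchange factor gene ARHGEF12 fell by 2.46 ± 0.09 (-1.48 corrected) and the Ras GTPase-activating gene RASA1 fell by 2.18 ± 0.09 (-1.38 corrected). Of 20 tested genes among other cues and partners, 8 were higher, 9 lower and 3 not called (85.0% called). The lower ones include UNC5CL (-1.13), which the opening leaves out of the guidance families as another gene. The proteoglycan genes GPC1 (3.66 ± 0.12; 2.63 corrected), SDC1 (2.13 ± 0.10; 1.47 corrected) and SDC4 (1.32 ± 0.07) and the Nogo receptor gene RTN4R (2.31 ± 0.16; 0.95 corrected) were higher. CD109, a list member for which no guidance role is given in the sources used here, fell by 9.16 ± 0.23 (-8.04 corrected). RGMA, a repulsive cue that binds neogenin, fell by 8.15 ± 0.47, with 4, 0 and 0 counts in siOSBPL3 against 323, 416 and 327 in siNC. The integrin gene ITGB1 fell by 1.29 ± 0.09 (-0.63 corrected), and ADAM10, a protease that sheds ephrins, fell by 1.21 ± 0.09, but ADAM10 stood at 0.10 after the correction (adjusted p = 0.32). Apart from ADAM10, each of the 16 genes named from these lists kept its call and direction under the correction.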

How the data were processed

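The authors deposited raw read counts per gene symbol for 6 libraries, not normalized. The submitters' processing notes name HISAT2 2.2.1, HTSeq 0.13.5 and GRCh38; the annotation and strand setting are not given in the sources used here. Per the labels' protocols, Trizol total RNA was sequenced in pairs on a NovaSeq.

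Counts were tested with edgeR 4.0.16 (R 4.3.3): filterByExpr (minimum count 10, total 15), TMM, robust quasi-likelihood fit on group, two-sided, Benjamini-Hochberg over all genes, threshold 0.05, SE as the fold change over the root of F. The fit was run on simulated data in which only a small share of genes changed. That run does not bear on data where most genes are called, as here. Folds with a group at 0 counts are bounds against 3 counts over the group, and where a group has 1 to 3 counts the ratio has an exact 95% binomial interval. Levels per kb used the longest GENCODE 29 transcript, coding where possible. Positions and promoters are from RefSeq on GRCh38.p14. Protein sequences were not used here.

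The members and lists were chosen with earlier results of these data known. Full values are given for ROBO1, EPHA4, each family's leading gene per length in each group, and up to 3 rises and 3 falls per family whose mean reaches 1 CPM and whose groups do not overlap; other members are named by direction or where a count is small. Of the 2 further lists (51 effectors, 47 in the table; 38 others, 30 in the table), up to 4 genes per direction with the smallest adjusted p are named. Alternatives were DESeq2 1.42.0, limma-voom (limma 3.58.1), RLE factors, library totals, 3 other filters, a threshold of 0.01, a replicate block, offsets for transcript G+C content and length (mgcv 1.9.3; 93.1% of tested genes), both together, and each library left out. Same-numbered libraries did not deviate together, which cannot exclude that the numbers pair the samples.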

Additional observations from a re-analysis of the deposited data

How the results depend on the processing

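Of the 47 tested guidance genes, 43 were called in the edgeR fit (91.5%, against 80.2% of all genes). Under RLE factors, library totals, DESeq2, limma-voom, the 3 other filters and a threshold of 0.01 the count ran from 32 (of 36 tested, mean of at least 5 CPM) to 46 (of 57 tested, no filter), and no direction turned. The share of all genes called in these fits ran from 64.1% (no filter) to 83.9% (mean of at least 5 CPM). Leaving out each library gave 38 to 43 called of the 48 or 49 tested, 24 to 28 higher, 14 to 15 lower and 27 to 30 changed at least 2-fold. Over all genes, these fits called 74.1% to 82.3%, and 47.5% to 49.8% at 2-fold or more. With each library left out, 38 to 41 effectors and 17 to 20 other guidance genes were called. EPHB3, NTN5, NTNG2, PLXNA3, SEMA4C and UNC5B each lost the call without at least 1 library.

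Offsets for transcript G+C content and length changed most: 12 genes were at least 2-fold higher and 14 at least 2-fold lower, against 19 and 9, with the same counts when the replicate block was added. In the fit with offsets alone these were 25.5% and 29.8% of the 47 guidance genes, against 21.9% and 18.5% of all genes, and the share of all genes changed at least 2-fold was 40.4%. With the offsets EPHB3 (-0.35), NTN5 (-0.38), PLXND1 (-0.19), SEMA3B (-0.24), SEMA4B (-0.04) and SEMA4C (-0.37) turned negative, and with the block as well they stood at -0.35, -0.35, -0.19, -0.26, -0.04 and -0.37. The cause was not tested.

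The replicate number as a block gave 41 called guidance genes and 12277 called genes against 12437, with NTN5 (adjusted p = 0.079) and NTNG2 (0.11) lost. Same-numbered libraries did not deviate together (correlations -0.02, -0.004 and -0.019). The siNC libraries differed little from each other, so these correlations cannot exclude that the numbers pair the samples. Depth limits the 11 untested genes, none above 42 counts in any library.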
